A study of Mus musculus with 2 samples.

Results

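Genes of the Notch pathway were followed across the cell classes of the mouse prostate by single-cell RNA sequencing, in which each captured RNA molecule carries a unique molecular identifier (UMI). The 10 genes were taken by name from the 32285 genes listed in both matrices and comprised the receptors Notch1, Notch2 and Notch3, the ligands Jag1, Jag2 and Dll1, and the target genes Hes1, Hey1, Heyl and Nrarp. All 10 were found. The cells came from wild-type male C57BL6 mice, with 1 library of the ventral prostate lobes and 1 of the proximal prostate together with the periurethral region, the tissue next to the urethra. The number of mice, their age and any pooling are not given in the sources used here. The 10x Genomics 3' chemistry differed as well, being version 2 for the ventral and version 3 for the proximal cells, and the effects of region and chemistry cannot be told apart. With 1 library per group no test between groups was possible, and every interval below is an exact 95% interval that covers counting error only.

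Notch signalling works between touching cells. A ligand of the Jagged or Delta-like family on the surface of 1 cell binds a Notch receptor on its neighbour, the receptor is cut by the ADAM and gamma-secretase proteases, and the freed intracellular domain enters the nucleus, where it joins RBPJ and Mastermind proteins and switches on target genes. Hes1, Hey1 and Heyl encode repressors of transcription of the hairy and enhancer-of-split type, and Nrarp encodes an ankyrin repeat protein that dampens the pathway. In the prostate epithelium, basal cells lie on the basement membrane, secretory luminal cells line the lumen and make the seminal fluid proteins, and a separate luminal type marked by Psca and Krt4 fills the proximal ducts.

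After filtering, 1988 ventral and 3705 proximal cells remained, with median depths of 25758.5 and 15260 UMIs per cell. The libraries shared 0 cell barcodes. Clusters were named after the marker list they resembled, which gave 141 ventral and 911 proximal basal-like cells, 82 and 1037 proximal luminal-like cells, and 1706 and 681 secretory luminal-like cells. The proximal library also held 61 endothelial-like cells, 522 stromal-like cells, 79 macrophage-like cells and 26 cells like seminal vesicle epithelium, the last counted among the epithelial cells, and 361 cells led by haemoglobin genes stayed unnamed. All stromal-like cells lay in fibroblast-like clusters, and no cluster resembled smooth muscle or pericytes. All 7 of 7 basal and 8 of 8 proximal luminal list genes were found in their classes in both libraries, and Pate4 was the only secretory list gene at 0 in the ventral secretory luminal-like cells. Sbp and Spink1, the 2 main secretory transcripts, made up 45.8% of UMIs in ventral secretory luminal-like cells, and they also made up 15.4% in ventral proximal luminal-like cells, 21.1% in ventral macrophage-like cells and 36.5% in ventral T or NK-like cells. The ventral basal-like cluster also held the fibroblast gene Dcn at 5209 CPM (the gene's UMIs scaled to counts per 1000000 UMIs of the class), the other 6 fibroblast list genes at a summed 190 CPM and the basal list at 4648 CPM. Dcn was also at 2003 and 1845 CPM in 2 of the 3 proximal basal-like clusters, led by Krt14 and by Trp63, with the other fibroblast list genes at a summed 7.81 and 4.04 CPM. The doublet caller marked 0.193% of cells and has not worked at that rate, so doublets are largely still present.

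The upstream sequences of Nrarp and of the 2 receptors whose levels followed it most closely across clusters (given further on) are shown to place these genes in the genome. Sequences are from RefSeq (GRCm38.p6) and lie outside the exons annotated in GENCODE M21. Nrarp is on chromosome 2 (25180758 to 25183339, plus strand), and its 250 bases upstream of the start are chr2:25180508-25180757. Notch1 (2, 26457903 to 26516663, minus strand) starts in RefSeq at 26503822, inside the longer GENCODE gene, and 248 bases upstream at chr2:26503825-26504072 are free of exons. Notch3 is on chromosome 17 (32120820 to 32166852, minus strand), with its 250 upstream bases at chr17:32166891-32167140. Capitals mark the N-box CACNAG, a motif that Hes proteins bind, on either strand. Each sequence is written 5′ to 3′ on the strand of its gene.
Nrarp: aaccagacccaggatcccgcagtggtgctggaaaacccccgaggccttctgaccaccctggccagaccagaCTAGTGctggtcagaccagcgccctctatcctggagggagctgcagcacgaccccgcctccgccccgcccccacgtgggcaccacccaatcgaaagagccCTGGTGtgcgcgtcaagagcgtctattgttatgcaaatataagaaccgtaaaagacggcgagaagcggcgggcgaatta
Notch1: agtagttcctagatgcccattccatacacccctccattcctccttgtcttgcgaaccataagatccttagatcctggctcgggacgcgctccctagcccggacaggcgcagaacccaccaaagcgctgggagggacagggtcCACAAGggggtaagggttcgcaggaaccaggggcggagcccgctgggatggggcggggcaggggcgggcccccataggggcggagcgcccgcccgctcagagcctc
Notch3: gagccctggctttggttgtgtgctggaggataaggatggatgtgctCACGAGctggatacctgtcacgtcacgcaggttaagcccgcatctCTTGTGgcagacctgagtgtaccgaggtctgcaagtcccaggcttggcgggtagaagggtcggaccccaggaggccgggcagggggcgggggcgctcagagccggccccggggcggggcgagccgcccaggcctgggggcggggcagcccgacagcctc
The N-box occurred at positions -179 and -79 from the start of Nrarp, at -108 for Notch1 and at -204 and -159 for Notch3. It is a common motif, present in 36.7% of 32851 promoter windows of 250 bases. None of the 3 windows held the RBPJ core motif TGGGAA (21.6% of windows), the AP-1 motif TGANTCA (6.75%) or the letters TATAAA (12.4%), each searched on both strands, so no match overlapped another motif. A match of letters is not a bound site. RefSeq promoter entries matched 7 of the 10 genes, and those for Hes1, Hey1 and Heyl were not in the table used.

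Among the ligands, Jag2 was highest in basal-like cells of both libraries. In the proximal library its level was 60.03 CPM in basal-like cells (55.8 to 64.5), 16.1 CPM in endothelial-like cells (8.57 to 27.5), 5.08 CPM in macrophage-like cells (1.65 to 11.9), 1.86 CPM in proximal luminal-like cells (1.40 to 2.42), 1.04 CPM in secretory luminal-like cells (0.727 to 1.45) and 0.909 CPM in stromal-like cells (0.295 to 2.12). Only the basal interval stood clear of all others, and the next levels overlapped their neighbours. In the ventral library Jag2 reached 53.8 CPM in basal-like cells (38.2 to 73.5) from 39 UMIs, 0.391 CPM in secretory luminal-like cells (0.231 to 0.617), and 0 UMIs in proximal luminal-like cells. The basal level was thus 57.5-fold the secretory luminal level in the proximal library (41.0 to 83.2) and 138-fold in the ventral library (76.9 to 256). Against proximal luminal-like cells it was 32.3-fold higher in the proximal library (24.6 to 43.3) and at least 20.7-fold higher in the ventral library, taking the floor of 3 UMIs for the class without any. A Jag2 UMI was seen in 45.9% of the proximal basal-like cells, at a median depth of 12025 UMIs, and in 0.958% of stromal-like cells, at a median of 10300. After each cell was thinned to 1000 UMIs these shares were 5.60% (4.20% to 7.30%) and 0.194% (0.00491% to 1.07%).

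Dll1, a Delta-like ligand, and Jag1, the other Jagged ligand, were also highest in basal-like cells among the epithelial classes but were shared with the stroma and the vessels. Dll1 stood at 36.1 CPM in proximal basal-like cells (32.8 to 39.6), 35.9 CPM in endothelial-like cells (24.0 to 51.5), 22.2 CPM in stromal-like cells (18.4 to 26.5), 5.54 CPM in proximal luminal-like cells (4.72 to 6.45) and 1.43 CPM in secretory luminal-like cells (1.06 to 1.90). Basal-like and endothelial-like levels overlapped, as did endothelial-like and stromal-like levels. Jag1 stood at 59.4 CPM in endothelial-like cells (43.8 to 78.8), 48.5 CPM in basal-like cells (44.7 to 52.6), 43.7 CPM in macrophage-like cells (31.6 to 58.8), 36.2 CPM in stromal-like cells (31.3 to 41.6), 8.85 CPM in proximal luminal-like cells (7.81 to 9.98) and 3.52 CPM in secretory luminal-like cells (2.91 to 4.22). The first 4 of these classes overlapped their neighbours in the order, and both luminal classes lay below them. In ventral basal-like cells Dll1 was at 19.3 CPM (10.6 to 32.4) and Jag1 at 13.8 CPM (6.61 to 25.4), and in ventral secretory luminal-like cells they were at 0.391 and 1.26 CPM. The basal to secretory luminal ratio of Dll1 was 25.2 (18.7 to 34.7) in the proximal and 49.4 (22.7 to 105) in the ventral library, and that of Jag1 was 13.8 (11.3 to 16.9) and 11.0 (4.99 to 21.6). The plot of members by class shows these ligands beside the receptors and targets.

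**Figure D1:**
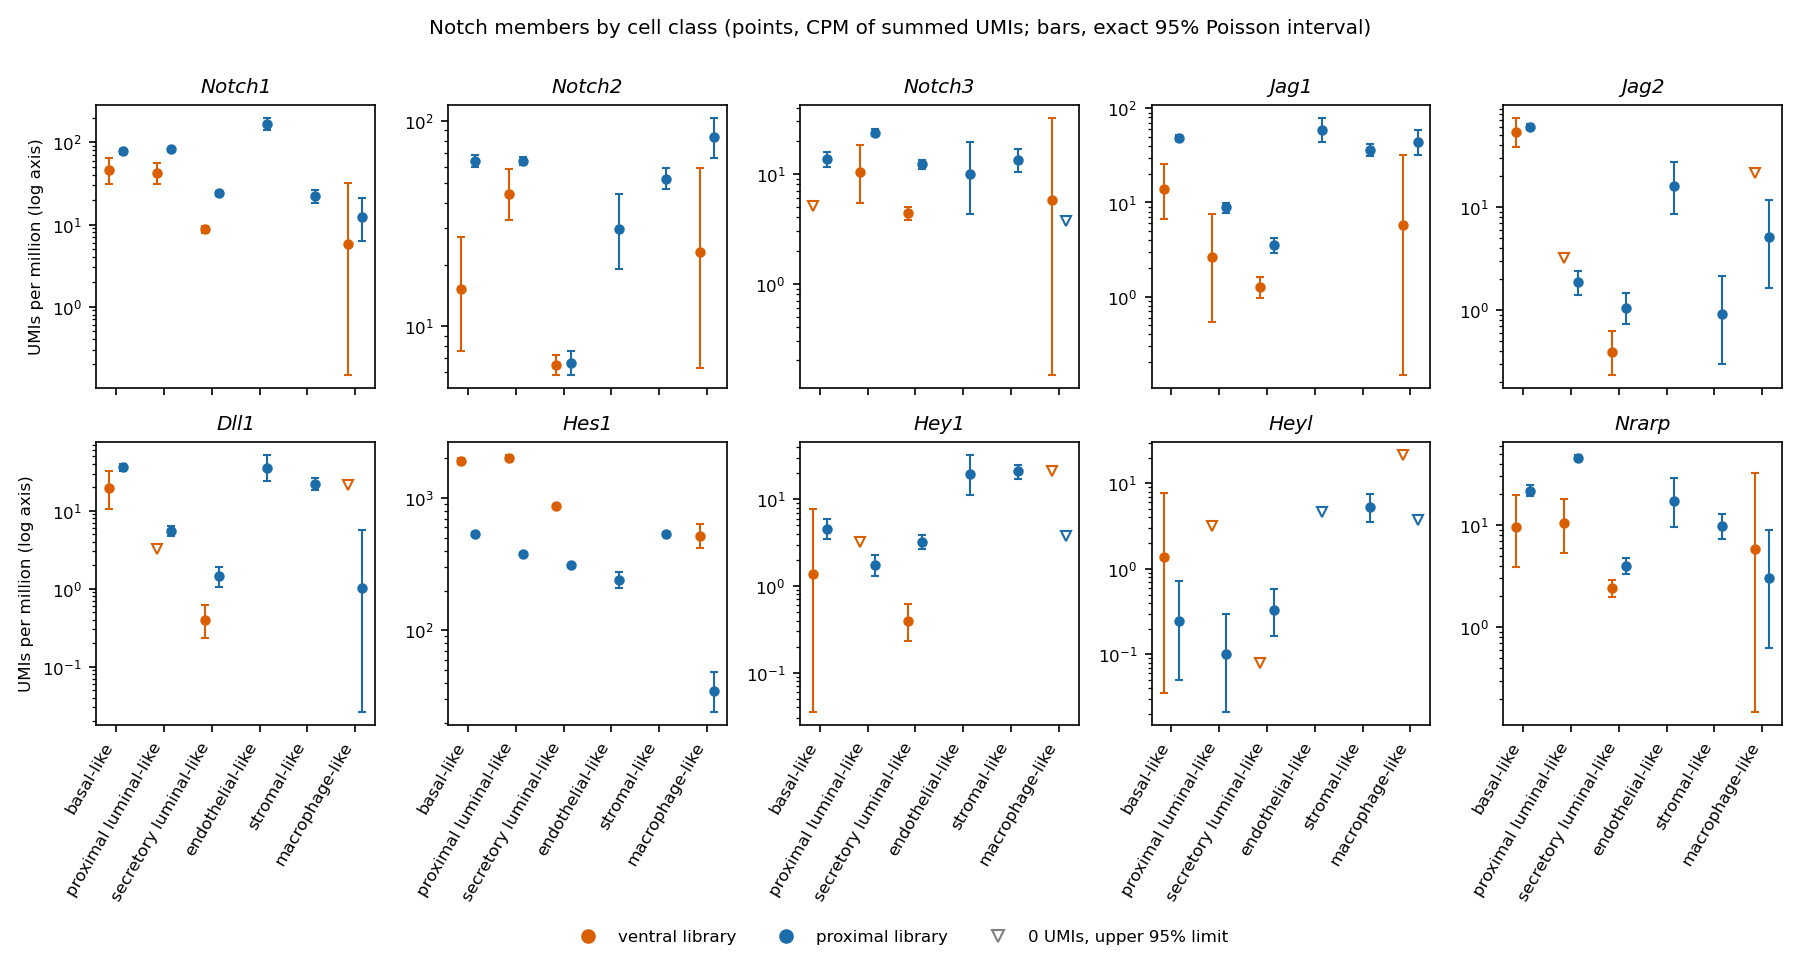
CPM of summed UMIs (log axis) of each of the 10 genes by cell class in the ventral (orange) and proximal (blue) libraries, with exact 95% Poisson intervals as bars and open triangles at the upper limit where a class had 0 UMIs. Jag2 is high in basal-like cells of both libraries (53.8 and 60.03 CPM), Nrarp is highest, among the classes shown, in proximal luminal-like cells of the proximal library (45.7 CPM), and Hes1 is higher in the ventral than in the proximal points of each shared class.

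The receptors had a different layout. Notch1 was at 167 CPM in endothelial-like cells of the proximal library (140 to 198), 82.5 CPM in proximal luminal-like cells (79.2 to 85.8), 77.7 CPM in basal-like cells (72.9 to 82.8), 23.9 CPM in secretory luminal-like cells (22.3 to 25.6), 22.0 CPM in stromal-like cells (18.2 to 26.3) and 12.2 CPM in macrophage-like cells (6.30 to 21.3). The endothelial level stood above all others, proximal luminal-like and basal-like cells overlapped, and the 3 lowest classes overlapped in turn. Notch2 was at 83.3 CPM in macrophage-like cells (66.3 to 103), 64.1 CPM in proximal luminal-like (61.3 to 67.1) and 64.0 CPM in basal-like cells (59.6 to 68.7), 52.3 CPM in stromal-like cells (46.5 to 58.8), 29.7 CPM in endothelial-like cells (19.0 to 44.2) and 6.62 CPM in secretory luminal-like cells (5.78 to 7.56). Seminal vesicle-like cells were at 6.31 CPM (2.32 to 13.7), overlapping the secretory luminal-like cells. Secretory luminal-like cells lay 9.67-fold below basal-like cells (8.32 to 11.3) and 9.68-fold below proximal luminal-like cells (8.42 to 11.2). Basal-like and proximal luminal-like cells did not differ beyond counting error in Notch1 (ratio 0.942, 0.874 to 1.02) or Notch2 (0.998, 0.917 to 1.09).

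Notch3, the receptor best known from smooth muscle and pericytes, was low throughout. It was at 23.7 CPM in proximal luminal-like cells (21.9 to 25.5), and basal-like (13.6 CPM), stromal-like (13.3 CPM), secretory luminal-like (12.2 CPM) and endothelial-like cells (9.90 CPM) overlapped in order. Macrophage-like cells had 0 UMIs of Notch3. In the ventral library Notch1 was at 45.5 CPM in basal-like cells (31.3 to 63.9), 42.5 CPM in proximal luminal-like cells (31.5 to 56.2) and 8.77 CPM in secretory luminal-like cells (7.93 to 9.66). Ventral Notch2 was at 44.3 CPM in proximal luminal-like cells (33.0 to 58.2), 15.2 CPM in basal-like cells (7.57 to 27.1) and 6.51 CPM in secretory luminal-like cells (5.79 to 7.29). Of the ventral proximal luminal-like cells, 22 held over 5% Sbp and Spink1. Without these, Notch1 was at 64.6 CPM (46.6 to 87.4) and Notch2 at 69.2 CPM (50.5 to 92.7) in that class. Ventral Notch3 had 0 UMIs in basal-like cells, with an upper limit of 5.09 CPM, against 4.38 CPM in secretory luminal-like cells, so no difference between these classes was detectable at this depth. Ventral proximal luminal-like cells were at 10.4 CPM from 12 UMIs (5.38 to 18.2), clear of the basal upper limit, though with fewer UMIs than the minimum for a comparison.

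Among the named classes of the proximal library, Nrarp, the feedback inhibitor, was highest in proximal luminal-like cells. Its level in the proximal library was 45.7 CPM there (43.3 to 48.2), 21.8 CPM in basal-like cells (19.2 to 24.6), 17.3 CPM in endothelial-like cells (9.47 to 29.1), 9.82 CPM in stromal-like cells (7.37 to 12.8), 4.00 CPM in secretory luminal-like cells (3.35 to 4.74) and 3.05 CPM in macrophage-like cells (0.629 to 8.91). The unnamed cluster was at 47.1 CPM (42.9 to 51.6), overlapping the proximal luminal-like cells. Proximal luminal-like cells exceeded basal-like cells 2.10-fold (1.84 to 2.40) and secretory luminal-like cells 11.4-fold (9.57 to 13.8). The ventral levels were 10.4 CPM (5.38 to 18.2) in proximal luminal-like cells, 9.65 CPM (3.88 to 19.9) in basal-like cells and 2.41 CPM (1.98 to 2.90) in secretory luminal-like cells. The first 2 overlapped, from 12 and 7 UMIs.

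Hey1 and Heyl, which in many tissues follow Notch in vessels and mural cells, had few UMIs in the epithelium. Hey1 was at 20.9 CPM in stromal-like cells (17.3 to 25.1) and 19.8 CPM in endothelial-like cells (11.3 to 32.2), and at 4.57 CPM in basal-like (3.45 to 5.93), 3.22 CPM in secretory luminal-like (2.64 to 3.89) and 1.76 CPM in proximal luminal-like cells (1.31 to 2.30) of the proximal library. Heyl had 29 UMIs in stromal-like cells (5.27 CPM, 3.53 to 7.57), 0 in endothelial-like cells and 17 in all epithelial cells (0.223 CPM, 0.130 to 0.357). Of those 29 UMIs, 26 lay in 1 of 3 fibroblast-like clusters, the one led by Cxcl14 and Bgn, where Heyl reached 11.6 CPM (7.57 to 17.0). That cluster also carried the smooth muscle list at 894 CPM, against 438 and 260 CPM in the other two, and the pericyte list at 40.6 CPM, against 37.9 and 46.6 CPM. The part of these lists in the Heyl level was not tested. In the ventral library Hey1 had 18 and Heyl 0 UMIs in secretory luminal-like cells, and each had 1 in basal-like cells.

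Hes1 was the broadest member. In the proximal library it was at 537 CPM in basal-like cells (524 to 550), 535 CPM in stromal-like cells (516 to 555), 380 CPM in proximal luminal-like cells (373 to 387), 311 CPM in secretory luminal-like cells (305 to 317), 240 CPM in endothelial-like cells (208 to 276) and 34.5 CPM in macrophage-like cells (23.9 to 48.3). Among ventral cells it was at 2026 CPM in proximal luminal-like cells, 1898 CPM in basal-like cells and 877 CPM in secretory luminal-like cells. The proximal luminal-like level was 2590 CPM (2468 to 2717) without cells holding over 5% Sbp and Spink1. Ventral macrophage-like cells had 520 CPM, 41.1% of it from 1 cell, and 232 CPM (149 to 345) without cells holding over 5% Sbp and Spink1. Across clusters Hes1 moved with a list of 11 immediate early and heat shock genes known to respond to tissue dissociation. The Pearson r of the log2 levels was 0.769 over the 19 proximal clusters, 0.817 over the 13 ventral clusters and 0.882 over the 9 ventral secretory luminal-like clusters, as a description of clusters that share a library and its depth. The proximal macrophage-like and seminal vesicle-like clusters were lowest in both, with list sums of 3586 and 4140 CPM and Hes1 at 34.5 and 72.6 CPM. Spearman correlations, which use ranks only, were 0.621, 0.714 and 0.833 in the same order. The 4 proximal secretory luminal-like clusters did not line up in this way: their list sums of 4731, 13864, 15398 and 16376 CPM went with Hes1 at 345, 289, 460 and 255 CPM. Within the ventral secretory luminal-like clusters Hes1 ran from 382 CPM, with the list at 1585 CPM, to 1229 CPM, with the list at 5147 CPM. The part of the dissociation response in the Hes1 level was not tested.

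**Figure D2:**
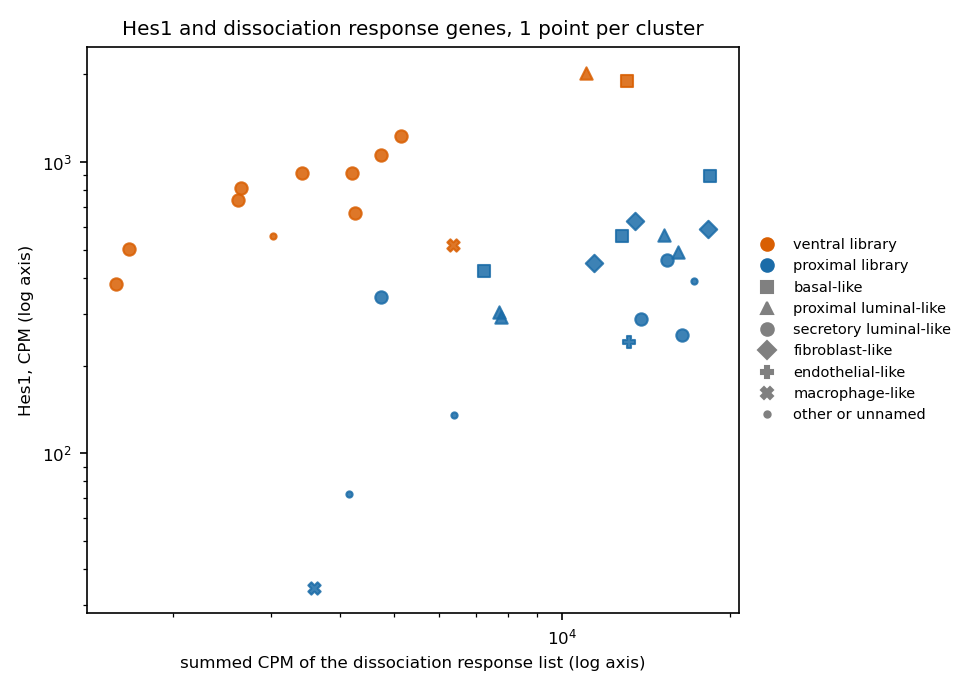
Hes1 level (CPM, log axis) against the summed level of 11 dissociation response genes (CPM, log axis), 1 point per cluster, ventral orange and proximal blue, with the shape giving the class. High Hes1 goes with a high list sum over most ventral clusters and more loosely over the proximal ones (one secretory luminal-like cluster has 16376 CPM of the list and 255 CPM of Hes1), and the ventral points lie above the proximal ones at a like level of the list.

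Counted over the members, 9 of 10 had at least 20 UMIs over basal-like and secretory luminal-like cells of the proximal library, the minimum for a comparison. Of these, 6 (Notch1, Notch2, Jag1, Jag2, Dll1 and Nrarp) were at least 2-fold higher in basal-like cells and 0 were lower, where over all genes 29.1% were higher and 20.6% lower, 49.7% in either direction. The members' median log2 ratio was 2.45, against 0.18 over all genes. Among the ventral cells 7 of 8 were higher and 0 lower, beside 39.2% and 8.47% of all genes (47.7% in either direction), and the medians were 2.19 and 0.65. With every gene over 1% of the UMIs of any compared class of either library left out of the total, the ventral median over all genes moved from 0.65 to -0.03. The part of secretory transcripts in the high ventral share of all genes was not tested. Under that total Notch2 and Hes1 dropped below 2-fold in ventral basal-like cells, to log2 ratios of 0.29 and 0.18, while Jag1, Jag2, Dll1, Notch1 and Nrarp stayed past it. Naming cells by marker z-scores took the ventral Hes1 ratio to a log2 of 0.52, and a naming reference within the library took it to 0.98.

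Between basal-like and proximal luminal-like cells of the proximal library the 3 ligands differed by more than 2-fold and the 3 receptors by less. In the proximal library 4 of 9 members, Jag1, Jag2, Dll1 and Hey1, were at least 2-fold higher in basal-like cells (13.9% of all genes), and 1, Nrarp, was lower (13.5%, with 27.4% of all genes past 2-fold in either direction). Jag1 was 5.49-fold higher (4.74 to 6.37), Dll1 6.51-fold (5.43 to 7.84) and Hey1 2.60-fold (1.75 to 3.87). Notch3 was 1.74-fold lower in basal-like cells (1.47 to 2.07), clear of an even ratio. Hey1 dropped to a log2 ratio of 0.84 at a coarser clustering. Only 4 members could be compared in the ventral library: Jag2 was higher in basal-like cells (13.2% of all genes), Notch2 was 2.92-fold lower (1.502 to 6.21, with 22.7% of all genes lower and 35.9% in either direction), and Notch1 and Hes1 lay within 2-fold. The Notch2 difference fell under 2-fold with a limit of 5% mitochondrial UMIs (log2 ratio -0.67) and with z-score names (-0.59).

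Of the members compared between proximal luminal-like and secretory luminal-like cells, 5 of 9 were at least 2-fold higher in the proximal luminal-like cells of the proximal library and 0 lower, beside 26.8% and 16.3% of all genes (43% in either direction). These were Notch1 (3.45-fold, 3.18 to 3.74), Notch2, Jag1 (2.51-fold, 2.01 to 3.15), Dll1 (3.87-fold, 2.79 to 5.45) and Nrarp. Notch3 was at 1.93-fold (1.71 to 2.19). Jag1 came under 2-fold under 4 alternatives (log2 ratios of 0.83 to 0.96) and Dll1 under 1 (0.97). The 6 of 6 members compared in the ventral library (Notch1, Notch2, Notch3, Jag1, Hes1 and Nrarp) were all higher, where 39.2% of all genes were higher and 2.53% lower, 41.7% in either direction. Of these, Jag1 rested on 3 UMIs with a ratio of 2.07 (0.415 to 6.35) that turned to a log2 of -0.29 with z-score names. With abundant genes left out of the total, 3 of the 6, Notch1, Notch2 and Nrarp, stayed past 2-fold. Hes1 also came under 2-fold in 3 further alternatives (log2 ratios of 0.70 to 0.99) and Notch3 in 2 (0.85 and 0.97).

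Basal-like cells were not uniform in their ligands. The proximal library held 3 basal-like clusters: 563 cells led by Krt14 and Krt17, 227 cells led by Grp and Ivl, and 121 cells led by Scpep1 and Trp63. Jag2 was at 79.7 CPM in the first (73.2 to 86.6), 19.1 CPM in the second (15.2 to 23.8) and 95.01 CPM in the third (76.8 to 116). Dll1 followed the same order, at 47.7 CPM (42.8 to 53.1), 11.3 CPM (8.36 to 15.04) and 58.6 CPM (44.5 to 75.8). The Grp- and Ivl-led cluster was thus low in Jag2 and Dll1, with intervals clear of the other two. Dcn moved with this split, at 104 CPM in that cluster against the 2003 and 1845 CPM given above for the Krt14- and Trp63-led clusters, and its part in the ligand levels was not tested. The second-best list of the Grp- and Ivl-led cluster was proximal luminal, and that of the others was fibroblast. Its leading genes held Col17a1 and Krt5 of the basal list and Aqp3 of the periurethral epithelium list. The part of cell type in the ligand levels was not tested either. Jag1 went another way, at 51.6, 48.9 and 25.3 CPM, and was lowest in the Trp63-led cluster. The Grp- and Ivl-led cluster had the highest Notch2 (81.1 CPM, 72.7 to 90.1, against 58.5 and 30.3 CPM), and the Trp63-led cluster had the highest Hes1 (895 CPM, 837 to 955, against 556 and 423 CPM). Dissociation response genes summed to 18392 CPM in the Trp63-led cluster and to 12779 and 7240 CPM in the Krt14- and the Grp-led clusters, in the order of Hes1. Clusters were formed without the members, but they are cells of 1 library and are not replicates.

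**Figure D3:**
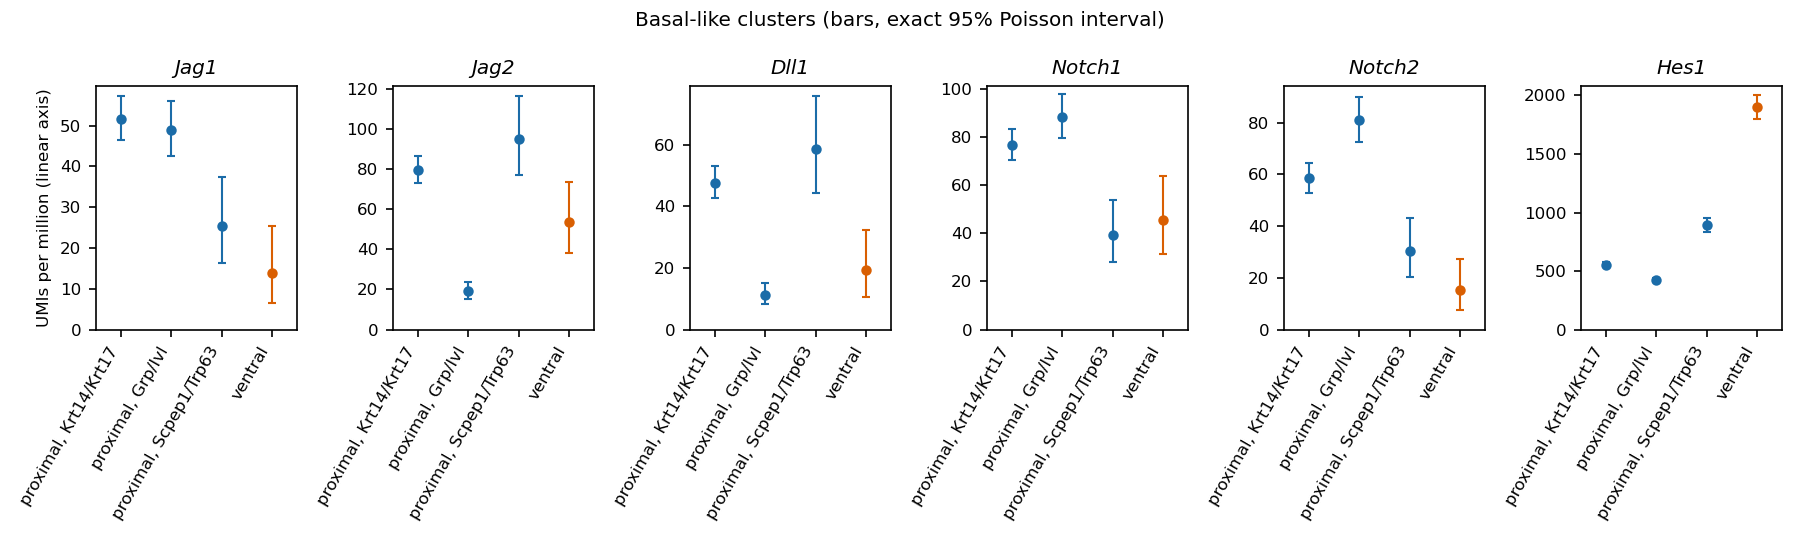
CPM (linear axis, exact 95% Poisson intervals) of 6 members in the 3 basal-like clusters of the proximal library (blue) and the ventral basal-like cluster (orange). Jag2 and Dll1 are low in the cluster led by Grp and Ivl (19.1 and 11.3 CPM), and Hes1 is far higher in the ventral cluster (1898 CPM).

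The luminal clusters varied as well. Over 4 proximal luminal-like clusters Notch1 ran only from 74.8 to 89.7 CPM with overlapping intervals, while Jag1 ran from 3.09 to 19.0 CPM and Dll1 from 1.49 to 13.1 CPM, both highest in the cluster led by Clca1 and Areg. Nrarp ran from 24.5 CPM in the cluster led by Prol1 to 52.7 CPM in the one led by Gm13986 and Krt23. Among 4 secretory luminal-like clusters Notch1 ran from 8.50 CPM (Ccnb1ip1-led) to 50.5 CPM (Prr9-led, 42.9 to 59.1), the latter overlapping the Trp63-led basal-like cluster at 39.4 CPM (28.0 to 53.9), and Hey1 from 0.315 CPM to 9.71 CPM in the same 2 clusters. The unnamed cluster, whose best-scoring list was proximal luminal, had Notch1 at 95.6 CPM and Nrarp at 47.1 CPM.

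**Figure D4:**
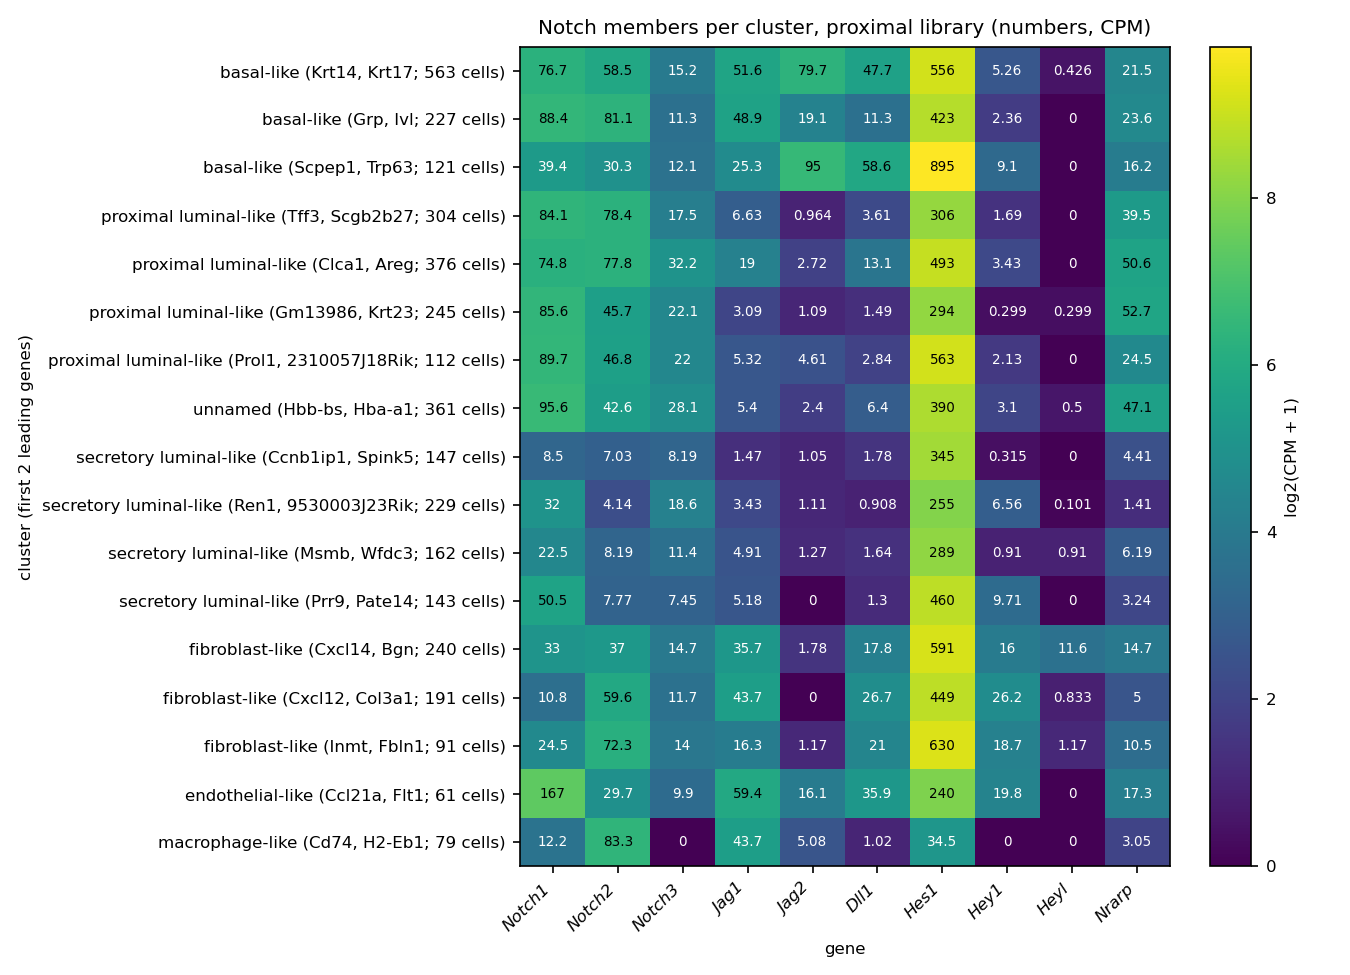
Levels of the 10 members (CPM as numbers, log2(CPM + 1) as colour) in each proximal library cluster of at least 50 cells, labelled by class, 2 leading genes and number of cells. Jag2 and Dll1 are high in 2 of 3 basal-like clusters (79.7 and 95.01 CPM of Jag2), and Nrarp is above 20 CPM in all proximal luminal-like clusters.

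The endothelial-like cells were led by Ccl21a and held the lymphatic endothelial list at 377 CPM, with 4 of 4 genes found, beside the endothelial list at 3680 CPM. The part of lymphatic cells in the levels below was not tested. Outside the epithelium, endothelial-like cells had 4 of 9 members at least 2-fold above the epithelial cells of the proximal library and 0 below, beside 21% and 13.5% of all genes (34.4% in either direction). These were Hey1 (6.999-fold, 3.93 to 11.6), Jag1 (4.65-fold, 3.41 to 6.22), Dll1 (4.19-fold, 2.78 to 6.08) and Notch1 (3.01-fold, 2.52 to 3.58). Dll1 came to a log2 ratio of 0.96 when levels were averaged over cells. Stromal-like cells had 4 of 10 higher (25.7% of all genes) and 3 lower (15.3%, with 41% in either direction). The higher ones were Heyl (23.7-fold, 12.6 to 45.9), Hey1 (7.39-fold, 5.84 to 9.31), Jag1 (2.83-fold, 2.42 to 3.30) and Dll1 (2.59-fold, 2.12 to 3.15). The lower ones were Jag2 (11.9-fold, 5.09 to 36.8), Notch1 (2.52-fold, 2.10 to 3.05) and Nrarp (2.34-fold, 1.79 to 3.13). Averaged over cells, Jag1 and Dll1 came to log2 ratios of 0.82 and 0.38 in stromal-like cells, and Nrarp came to -0.88 at the coarser clustering and -0.94 with z-score names. Both comparisons share the epithelial cells, which pool classes of unlike ligand levels. Basal-like cells alone had Jag1 at 48.5 CPM and Dll1 at 36.1 CPM. Stromal-like cells lay below these levels (36.2 and 22.2 CPM), and endothelial-like cells overlapped them (59.4 and 35.9 CPM). Set against each other, endothelial-like cells had Notch1 7.60-fold above stromal-like cells (5.90 to 9.79; 13.8% of all genes higher) and Hes1 2.23-fold below (1.93 to 2.59; 23.1% lower, 36.9% in either direction), 6 of the other 7 members compared had ratios within 2-fold, and Heyl, with 0 against 29 UMIs, was at least 1.42-fold lower. The Hes1 difference fell under 2-fold in 3 alternatives, down to a log2 ratio of -0.18 with z-score names.

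Between the libraries, 5 of 9 members were at least 2-fold higher in proximal than in ventral basal-like cells and 1 was lower, beside 26.4% and 17.9% of all genes (44.4% in either direction). Notch2 was 4.22-fold higher (2.35 to 8.49), Jag1 3.52-fold (1.90 to 7.38) and Nrarp 2.26-fold (1.08 to 5.67), Notch3 was at least 3.29-fold higher, and Hey1, with 1 ventral UMI, had a ratio of 3.31 (0.571 to 133). Without the cell with the most UMIs the ventral Hey1 count was 0, and the floor of 3 UMIs gave only a lower bound, a log2 ratio of at least 0.05. Jag2 was even, at 1.12 (0.809 to 1.58). The proximal class pooled unlike basal-like clusters. In the Trp63-led one Notch2 was at 30.3 CPM (20.5 to 43.3), Jag1 at 25.3 CPM (16.4 to 37.3) and Nrarp at 16.2 CPM (9.24 to 26.3). These intervals overlapped those of the ventral class (7.57 to 27.1, 6.61 to 25.4 and 3.88 to 19.9). Notch3 in that cluster, at 12.1 CPM (6.27 to 21.2), lay above the ventral upper limit of 5.09 CPM. Hes1 was the lower member in all 3 classes: 3.53-fold in basal-like cells (3.33 to 3.75), 5.34-fold in proximal luminal-like cells (5.10 to 5.58) and 2.82-fold in secretory luminal-like cells (2.76 to 2.89). The dissociation list was at 11320 CPM in proximal and 13096 CPM in ventral basal-like cells, at 10852 and 11054 CPM in proximal luminal-like cells, and at 12151 and 3619 CPM in secretory luminal-like cells, where it was higher in the proximal library. In proximal luminal-like cells 4 of 9 members were higher (19.5% of all genes) and 1 lower (15.7%, with 35.2% in either direction). Nrarp was 4.39-fold higher (2.51 to 8.52), and Notch3 and Jag1, with 12 and 3 ventral UMIs, came under 2-fold in several alternatives, among them leaving out the 22 of 82 ventral cells with over 5% Sbp and Spink1 (log2 ratios of 0.78 and 0.95). Dll1, with 0 ventral UMIs, was at least 2.13-fold higher. With fewer ventral cells that floor is higher and the bound weaker, at a log2 ratio of at least 0.26 without those 22 cells, which does not show a smaller difference. In secretory luminal-like cells 6 of 9 were higher and 1 lower, where 44.3% of all genes were higher and 2.77% lower (47.1% in either direction). The compared cells differed in their secretory genes: Sbp and Spink1 made up 45.8% of ventral and 16.1% of proximal class UMIs, and the proximal clusters were led by Ccnb1ip1, Ren1, Msmb and Prr9. Type of secretory cell and library cannot be told apart in these values. The members' median log2 ratio there was 1.45 against 0.88 over all genes. The proximal secretory luminal-like clusters were unlike in this respect: the one led by Ccnb1ip1 had Hey1 at 0.315 CPM (0.0649 to 0.920) and Notch1 at 8.50 CPM (6.75 to 10.6), beside 0.391 and 8.77 CPM in the ventral class. Notch3 in that cluster was at 8.19 CPM (6.47 to 10.2), Dll1 at 1.78 CPM (1.04 to 2.86) and Nrarp at 4.41 CPM (3.18 to 5.96), above the intervals of the pooled ventral class (3.80 to 5.03, 0.231 to 0.617 and 1.98 to 2.90). The highest ventral secretory luminal-like clusters had 7.24 CPM (5.12 to 9.93), 0.813 CPM (0.298 to 1.77) and 5.15 CPM (3.64 to 7.07) of these genes. Their intervals overlapped those of the Ccnb1ip1-led cluster. The clusters led by Ren1 and Prr9 had Hey1 at 6.56 and 9.71 CPM. Over the whole class Hey1 was 8.25-fold higher (4.98 to 14.4) and Dll1 3.67-fold (2.09 to 6.70), and both stayed past 2-fold with abundant genes left out of the total, whereas Notch1, Notch3, Jag1 and Jag2 came to log2 ratios of 0.85 to 0.92. Jag2 also came to 0.96 with z-score names and 0.81 with free RNA subtracted.

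At the level of single cells, a receptor UMI (Notch1, Notch2 or Notch3) and a ligand UMI (Jag1, Jag2 or Dll1) were found together in 58.1% of proximal basal-like cells (54.8% to 61.3%), at a median of 12025 UMIs. Of the same cells, 72.9% had a receptor UMI and 76.1% a ligand UMI. In proximal luminal-like cells 85.6% had a receptor UMI and 27.2% a ligand UMI, with both in 25.3% (22.6% to 28.0%) at a deeper median of 19931 UMIs. Secretory luminal-like cells, deeper still at 48954 UMIs, had both in 19.7% (16.8% to 22.9%). Endothelial-like cells had both in 54.1% (40.8% to 66.9%) at 10500 UMIs, and stromal-like cells in 23.2% (19.6% to 27.0%) at 10300. These shares depend on depth. Whether both kinds of UMI met more often than their separate shares give was not tested, nor was the part of remaining doublets. Thinned to 1000 UMIs per cell, which left out 0 to 6 shallower cells per class, both were found in 5.0% of endothelial-like cells (1.04% to 13.9%), 1.87% of basal-like cells (1.09% to 2.97%), 0.388% of stromal-like cells (0.0470% to 1.39%), 0.387% of proximal luminal-like cells (0.106% to 0.988%) and 0 of 676 secretory luminal-like cells (up to 0.544%). The basal interval then stood clear of both luminal classes, and overlapped those of endothelial-like and stromal-like cells. A ligand UMI was found in 13.2% of thinned basal-like cells (11.0% to 15.5%) and in 1.65% of thinned proximal luminal-like cells (0.962% to 2.62%), and a receptor UMI in 12.8% (10.7% to 15.2%) and 15.005% (12.9% to 17.3%).

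The other 48 genes of the pathway list were all matched. Between proximal basal-like and secretory luminal-like cells 42 had enough UMIs, of which 12 were at least 2-fold higher and 3 lower, beside the 29.1% and 20.6% of all genes. Dlk2, a non-canonical ligand, was at 38.9 CPM in basal-like and 0.328 CPM in secretory luminal-like cells of the proximal library. Maml2, a Mastermind coactivator, was at 202 and 9.70 CPM there, 343 CPM in proximal luminal-like cells and 1017 CPM in endothelial-like cells. Lfng, a fringe enzyme that adds sugars to the receptors, was 10.8-fold higher in basal-like than in secretory luminal-like cells (7.05 to 17.2), and Psen2, a catalytic subunit of gamma-secretase, was 6.36-fold lower (5.04 to 8.12). Furin, the protease that processes the receptors, stood 3.70-fold above its proximal luminal-like level in basal-like cells (3.21 to 4.26). In that comparison 5 of 43 list genes were higher and 1 lower, beside 13.9% and 13.5% of all genes. Dll4, the vascular Delta-like ligand, was at 116 CPM in endothelial-like cells (94.0 to 142) and at 1.09 CPM in epithelial cells, and 15 of 46 list genes were higher and 1 lower in the former, beside 21% and 13.5% of all genes. Dner, a non-canonical ligand, was at 270 CPM in stromal-like cells (256 to 284), 1.11 CPM in epithelial cells and 0 UMIs in endothelial-like cells, with 17 of 47 list genes higher and 3 lower in the stroma, beside 25.7% and 15.3% of all genes. Rbpj, the DNA-binding partner, which was chosen after its values were seen, was at 363 CPM in macrophage-like cells (326 to 402) and between 19.5 and 58.2 CPM in the other 5 classes.

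The pattern of each member over the 17 proximal clusters of at least 50 cells was set against 12814 genes by Pearson r of log2(CPM + 10). Among the members, Nrarp went with Notch1 (0.741) and Notch3 (0.715), Jag2 with Dll1 (0.727) and Jag1 with Dll1 (0.717). The closest genes overall were Tinagl1 (0.929) and Tjp1 (0.921) after 2900026A02Rik (0.940) for Notch1, Elf4 (0.966) for Notch2, Kdm5b (0.891) for Notch3, Sept10 (0.969) for Jag1, Ces2e (0.981), Sox6 (0.961) and Dlk2 (0.949) for Jag2, Gm16552 (0.970) and Col18a1 (0.960) for Dll1, Ccdc34 (0.882) for Hes1, Rbms2 (0.965) for Hey1, and Fgfr3 (0.968) and Epha2 (0.952) for Nrarp. These values describe 17 clusters of 1 library that share its depth, and the highest of 12814 values is high for any gene. Heyl had too few UMIs for this comparison.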

How the data were processed

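Dissociated prostate cells were profiled with the 10x Genomics 3' assay. The deposited matrices hold UMI counts per gene and barcode; Cell Ranger 7.0.0 and build mm10 are named in the submitters' processing notes, and whether intronic reads were counted is not given in the sources used here. Barcodes with under 500 genes or over 10% mitochondrial UMIs were removed (226 ventral, 635 proximal), and Scrublet calls (7 and 4 cells) left out. Cells were clustered per library with scanpy 1.11.5 (2000 variable genes without members and lists, 30 components, 15 neighbours, Leiden resolution 1). A cluster took the best-scoring of 19 marker lists if at least 3 markers were found in 25% of its cells and lay above the mean over clusters of both libraries. That reference was set after clusters had been looked at, since a reference within each library left ventral secretory clusters unnamed; it is kept as an alternative.

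UMIs were summed per class and given as CPM with exact Poisson intervals; ratios have exact intervals conditional on the total, and shares Clopper-Pearson intervals. Genes with at least 20 UMIs over both classes were compared. A count of 0 was set to 3 UMIs and taken as no difference where that floor lay on the other side, also in medians. In small classes a few UMIs can pass 2-fold by counting error, which the intervals show. The text names all members, up to 3 pathway genes per direction and comparison by size of ratio (at least 50 UMIs), Rbpj outside this rule, and up to 3 genes of like pattern (at least 200 UMIs). Members and lists were chosen with earlier results of these data known. Steps were tested on simulated counts. Coordinates are from GENCODE M21 (GRCm38).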

Additional observations from a re-analysis of the deposited data

Results flagged for a closer look

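T or NK-like cells of the proximal library, which enter no comparison above, held Notch2 at 116 CPM (75.2 to 172). This interval overlapped that of macrophage-like cells of that library (83.3 CPM, 66.3 to 103). It lay above the intervals of the secretory luminal, proximal luminal, basal, endothelial and stromal classes. The T or NK level rests on 25 UMIs in 9 of 27 cells, and 8 of them came from 1 cell. The ventral T or NK-like cells had 11.0 CPM (3.56 to 25.6) from 5 UMIs in 29 cells, of whose UMIs 36.5% were Sbp and Spink1, against 0.229% in the proximal T or NK-like cells. Without the ventral cells over 5% of these transcripts, 11 cells with 0 Notch2 UMIs remained, with an upper limit of 69.3 CPM.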

How the results depend on the processing

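Each of the 12 comparisons was recomputed under 17 alternatives. Of 204 counts of members past 2-fold, 184 stayed within 1.5 times the reported count and 20 moved. For the proximal over ventral comparison of proximal luminal-like cells (5 members), 2 members were past the fold with at least 1000 genes per cell, at a Leiden resolution of 2, with list genes allowed among the variable genes and without cells rich in Sbp and Spink1, 8 with z-score names, and 3 with abundant genes left out of the total and at a fold of 3. With z-score names the median log2 ratio over all genes in this comparison also moved, from 0.00 to 0.60. Ventral Dll1 had 0 UMIs in the reported comparison, and its value of 0.00 on the log2 scale with list genes allowed is the convention for a floor above the other level, not a measured even ratio. For ventral basal over proximal luminal-like cells (2 members), 1 remained past the fold with at most 5% mitochondrial UMIs, at a fold of 3 and at a minimum of 50 UMIs. For ventral proximal luminal over secretory luminal-like cells (6), the count was 3 with z-score names, with abundant genes left out and at a fold of 3, and z-score names turned Jag1 to a log2 ratio of -0.29. In that comparison the median log2 ratio over all genes moved from 0.79 to 0.31 with z-score names and to 0.07 with abundant genes left out. For secretory luminal-like cells between libraries (7), the count was 3 with abundant genes left out, where the median over all genes moved from 0.88 to 0.31. It was 2 at a fold of 3. A fold of 1.5 gave 8 in place of 5 members for proximal luminal over secretory luminal-like cells of the proximal library and 6 in place of 2 for endothelial over stromal-like cells, and a fold of 3 gave 1 for the latter. A fold of 3 gave 3 for basal over proximal luminal (5) and for stromal over epithelial cells (7) of the proximal library. The share of all genes past the fold was not counted under the alternatives, so these counts have no background beside them. The cause of the other changes was not tested. Shares of cells with a Jag2 UMI and with receptor and ligand UMIs were printed both unthinned and thinned. No paired analysis was possible because each group had 1 library. Depth limits the smaller classes: in ventral basal-like and proximal luminal-like cells Hey1 and Heyl had at most 1 UMI each, and 3 UMIs stood for 4.14 and 2.60 CPM there, 3.71 CPM in proximal endothelial-like cells and 17.3 CPM in ventral macrophage-like cells.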
